A study of Homo sapiens with 6 samples.

Results

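The proteasome genes described here are 47 human genes for the subunits, activators and assembly factors of the proteasome, of 58825 genes in the table. They were chosen by gene name and grouped by their place in the complex, after earlier results of the same comparison were known, among them higher PSMB2, PSMB8 and PSMB10 levels in shNSUN2 cells. Their calls in this comparison are therefore a description of the 47 genes and not independent evidence that they moved as a set. RNA sequencing was done on FaDu, an established line of hypopharyngeal squamous carcinoma cells. The shNSUN2 group held 3 libraries from FaDu cells with a short hairpin RNA against NSUN2, an RNA 5-methylcytosine methyltransferase. The FaDu group held 3 libraries whose labels name the cell line and no hairpin. Without libraries labelled as a control hairpin, knockdown of NSUN2, presence of a hairpin, and its delivery and selection cannot be told apart. The labels do not say whether replicates came from separate cultures, so the p-values cover the spread among the 6 libraries alone, and that spread could be technical.

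The proteasome is the protease that degrades ubiquitin-tagged proteins in the cytosol and nucleus. Its barrel-shaped 20S core is built of rings of alpha subunits, which form the gate, around rings of beta subunits, which carry the active sites. The 19S regulatory particle binds the ends of the core, captures ubiquitylated proteins, removes the ubiquitin and threads the substrate in with a ring of ATPases. Cells exposed to interferon gamma replace the catalytic subunits PSMB5, PSMB6 and PSMB7 by PSMB8, PSMB9 and PSMB10, which gives the immunoproteasome and shifts the peptides offered to MHC class I. Other caps (the PA28 proteins PSME1, PSME2 and PSME3, and PA200, encoded by PSME4) open the core without ATP or ubiquitin. When proteasome activity is inhibited, the transcription factor NFE2L1 raises subunit genes together through antioxidant response elements in their promoters.

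Promoter sequence is shown for 6 genes: PSMB8, PSMB9 and PSMB10, the interferon-inducible catalytic subunits; PSMB5, the constitutive partner of PSMB8; PSME2, an interferon-inducible activator; and PSMB2, a constitutive subunit. Apart from PSMB9 these are the 5 genes called higher under every setting tried. Each line gives the 250 bases before the RefSeq gene start on the GRCh38.p14 assembly, 5′ to 3′ on the strand of the gene. The gene spans given below follow GENCODE 29, whose outermost start can differ. The windows of PSMB9, PSME2 and PSMB2 lie inside those spans, and so does most of the PSMB10 window. Capitals mark matches to an antioxidant response element (TGACNNNGC), an interferon-stimulated response element core (GAAANNGAA) or a gamma-activated site (TTCNNNGAA), each searched on both strands. The windows are chr6:32844680-32844929 (minus strand) for PSMB8, chr6:32853942-32854191 (plus) for PSMB9, chr16:67936851-67937100 (minus) for PSMB10, chr14:23035221-23035470 (minus) for PSMB5, chr14:24146611-24146860 (minus) for PSME2 and chr1:35641527-35641776 (minus) for PSMB2.
PSMB8: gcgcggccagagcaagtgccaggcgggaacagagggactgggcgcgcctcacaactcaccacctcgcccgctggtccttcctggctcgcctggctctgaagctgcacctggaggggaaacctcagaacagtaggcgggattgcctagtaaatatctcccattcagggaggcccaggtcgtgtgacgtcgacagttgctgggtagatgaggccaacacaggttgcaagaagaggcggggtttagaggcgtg
PSMB9: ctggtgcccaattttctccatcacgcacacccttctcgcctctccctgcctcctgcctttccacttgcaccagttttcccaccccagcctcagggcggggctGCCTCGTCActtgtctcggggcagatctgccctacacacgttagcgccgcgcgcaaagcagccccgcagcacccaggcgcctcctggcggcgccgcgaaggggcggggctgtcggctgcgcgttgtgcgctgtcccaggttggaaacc
PSMB10: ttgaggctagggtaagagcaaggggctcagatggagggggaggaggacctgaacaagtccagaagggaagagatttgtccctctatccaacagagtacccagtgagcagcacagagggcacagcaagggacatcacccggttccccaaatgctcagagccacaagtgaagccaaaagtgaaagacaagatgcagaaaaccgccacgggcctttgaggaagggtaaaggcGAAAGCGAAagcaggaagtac
PSMB5: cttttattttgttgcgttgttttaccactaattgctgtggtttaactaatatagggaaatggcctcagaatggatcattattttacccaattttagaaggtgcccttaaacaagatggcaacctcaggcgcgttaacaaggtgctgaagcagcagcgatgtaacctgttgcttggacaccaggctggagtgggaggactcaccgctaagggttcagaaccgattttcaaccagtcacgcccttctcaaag
PSME2: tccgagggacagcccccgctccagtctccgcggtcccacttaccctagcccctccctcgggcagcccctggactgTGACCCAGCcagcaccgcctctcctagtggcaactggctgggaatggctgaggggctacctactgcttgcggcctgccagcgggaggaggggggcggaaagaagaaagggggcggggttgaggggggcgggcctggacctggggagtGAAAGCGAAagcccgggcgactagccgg
PSMB2: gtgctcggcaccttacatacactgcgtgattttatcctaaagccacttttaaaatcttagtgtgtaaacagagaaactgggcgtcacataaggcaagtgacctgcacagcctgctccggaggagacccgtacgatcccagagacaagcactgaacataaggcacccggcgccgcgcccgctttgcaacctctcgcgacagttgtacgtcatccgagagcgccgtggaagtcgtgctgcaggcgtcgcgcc

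PSMB10 and PSME2 each held the letters GAAAGCGAA close to the RefSeq start, with the first base at -21 in PSMB10 and at -28 in PSME2. PSME2 also held TGACCCAGC from -175, and PSMB9 held GCCTCGTCA from -148, which reads as the antioxidant response element on the other strand. None of these letters was found in the 250-base windows of PSMB8, PSMB5 and PSMB2. A promoter entry was found for 41 of the 47 genes. The antioxidant response element letters were present in 11 of the 41 (26.8%), against 10.9% of 35116 promoters of the same length, in PSMB3, PSMB9, PSMD3, PSMD5, PSMD9, PSMD12, PSME1, PSME2, PSME4, PSMG1 and PSMG2. The interferon-stimulated core was present in 6 (14.6%), against 6.88% of all promoters, in PSMA4, PSMB4, PSMB10, PSME2, POMP and PSMG4. The gamma-activated site was present in 4 (9.76%), against 6.57%, in PSMA2, PSMC4, PSMD3 and PSME3. These are matches of letters and not measured binding sites.

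Values below are CPM, counts scaled to a common library total by edgeR's TMM method, and sets of 3 values follow the order of replicates 1, 2 and 3. NSUN2 itself was at 50.4, 34.7 and 39.6 CPM in shNSUN2 libraries, against 169, 173 and 156 CPM in FaDu libraries, or 25.1% of the FaDu mean. Library totals ran between 53612358 and 72788971 estimated counts. All 10 squamous epithelial markers were detected, with summed levels of 4867 to 5816 CPM in shNSUN2 and 5320.5 to 5490 CPM in FaDu libraries. These similar sums cover changes in both directions. In shNSUN2, 5 markers were called lower: KRT5, KRT14, KRT17, TP63 and SFN, at 46.0%, 22.3%, 50.4%, 68.4% and 60.0% of the FaDu mean. The 3 called higher, KRT8, KRT18 and EPCAM, stood at 507%, 331% and 149% of the FaDu mean. Over all tested genes, 9.97% were called lower and 8.54% higher. Replicate 3 of shNSUN2 differed most from its group: over 14168 genes its log2 difference from the other shNSUN2 libraries had a Spearman rho of 0.54 with GC content and -0.36 with exonic length. Genes are not independent replicates.

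All 47 proteasome genes passed the filter on low counts, and their transcripts were mostly more abundant in shNSUN2 cells. A gene is called here at a Benjamini-Hochberg adjusted p under 0.05 over 19081 genes, by edgeR's quasi-likelihood test, and log2 fold changes are shNSUN2 over FaDu. Of the 47, 25 were called higher (53.2%), against 8.54% of all tested genes. None was called lower, against 9.97% of all tested genes, and none had an unadjusted p under 0.05 in that direction. Among the 9677 tested genes averaging at least 10 CPM, where all 47 lie, 13.4% were called higher. The median log2 fold change was 0.50 over the 47 genes, with a range of -0.24 to 2.01, beside -0.01 over all tested genes and 0.11 over those averaging at least 10 CPM. The estimate was above 0 for 46 genes, and PSMD10 was the exception. Since earlier results of this contrast were known when the genes were listed, nothing is read from these shares.

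The 3 shNSUN2 libraries lay wholly above the 3 FaDu libraries for 36 of the 47 genes, a pattern found in 20.3% of all tested genes. Those 36 were the 25 called genes and 11 others. The groups overlapped for 10 genes, and PSMD10 was lower in each shNSUN2 library. DESeq2 called 26 higher and none lower. The count depended on which library was left out: it was 26 without replicate 2 and 26 without replicate 3 of shNSUN2, but 13 without replicate 1 of shNSUN2, 8 without replicate 1, 7 without replicate 2 and 5 without replicate 3 of FaDu. The number of all genes called higher was 1682, 2090, 886, 626, 478 and 493 in the same fits, against 1629 with all libraries. PSMB2, PSMB5, PSMB8, PSMB10 and PSME2 were called in each of the 12 alternatives tried. Nearest the threshold, PSMD2 had an adjusted p of 0.0487 and PSMC4 one of 0.0596.

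**Figure D1:**
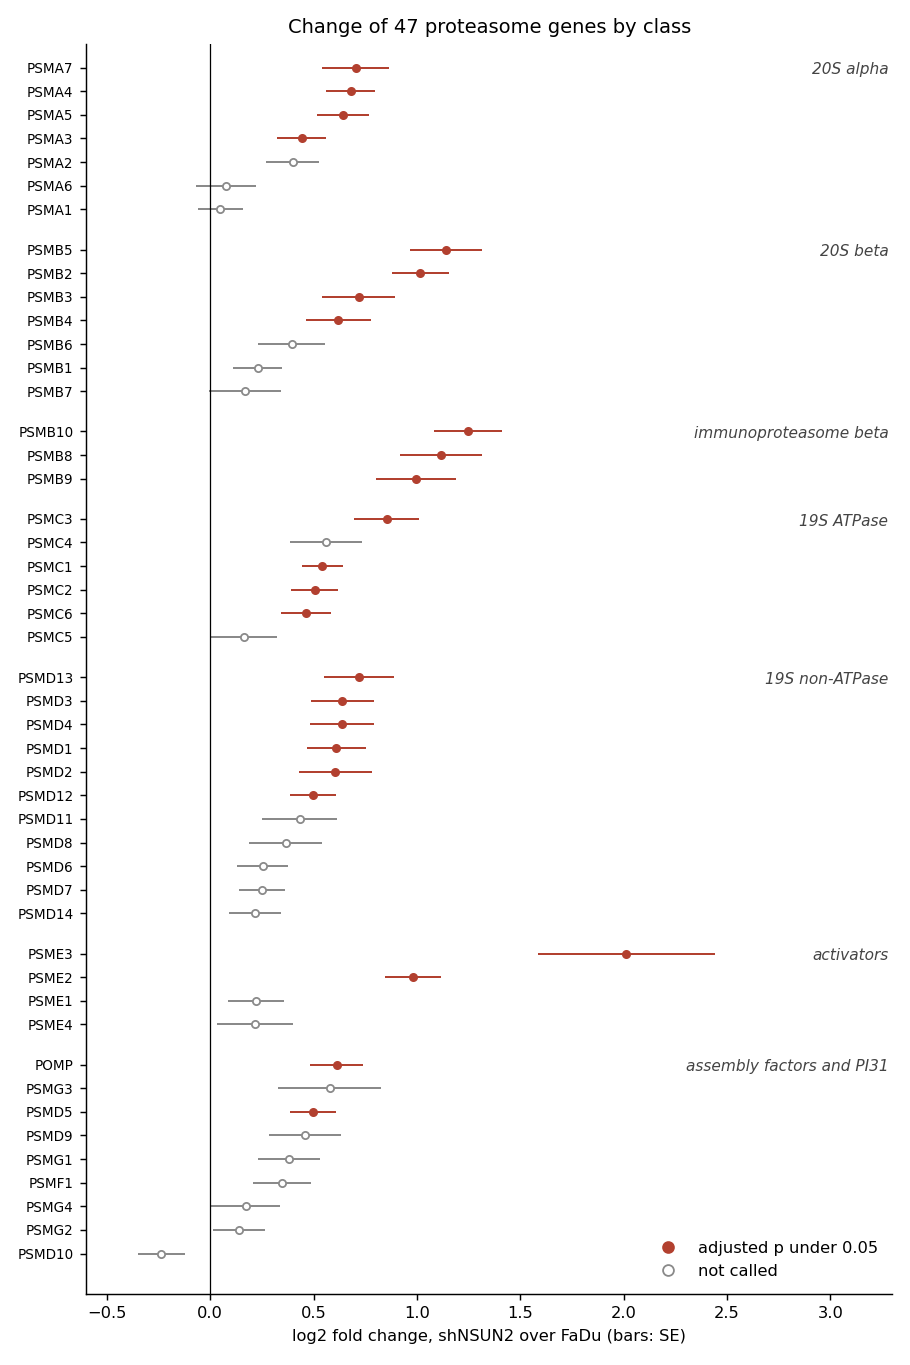
Log2 fold change (shNSUN2 over FaDu, horizontal axis) of the 47 proteasome genes by class, with bars of 1 SE; filled points were called at an adjusted p under 0.05. All but PSMD10 lie right of 0, and PSME3, with the largest change at 2.01, also has the widest bar.

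Together the 47 genes took 7887, 7167 and 9357 CPM in shNSUN2 libraries, against 5646.5, 5602 and 5292 CPM in FaDu libraries. That is 0.814% ± 0.112 of all counts in shNSUN2 and 0.551% ± 0.0193 in FaDu (SD, n = 3 each). The sums did not overlap, and the shNSUN2 libraries were the more spread out. The median gene stood 0.53, 0.40 and 0.65 above its FaDu mean on the log2 scale in shNSUN2 replicates 1, 2 and 3, and 0.04, 0.02 and -0.05 from it in FaDu replicates 1, 2 and 3. Replicate 3 was the highest shNSUN2 library for 37 of the 47 genes and for 20 of the 25 called ones, and replicate 2 the lowest for 33.

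**Figure D2:**
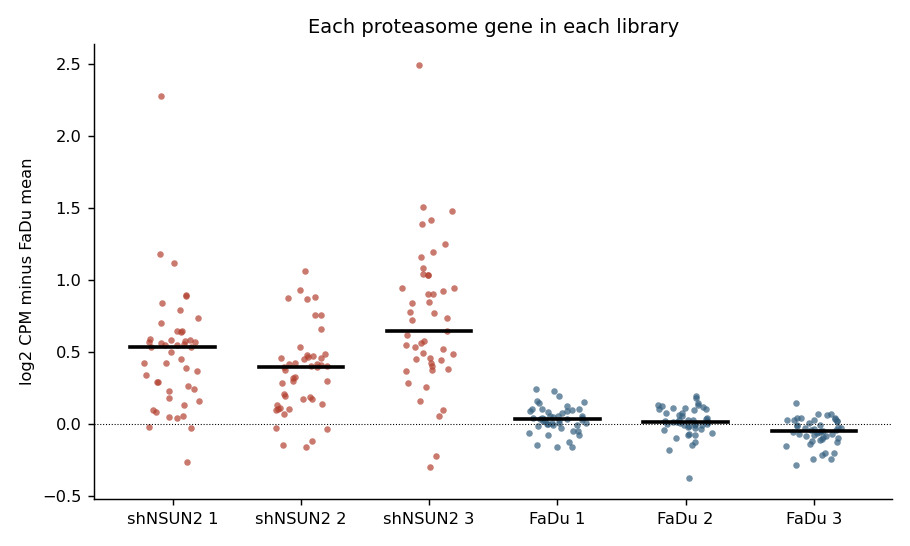
Each point is 1 of the 47 proteasome genes in 1 library, as log2 CPM minus the gene's mean over the FaDu libraries (vertical axis); black lines are medians. The medians of the shNSUN2 libraries lie at 0.53, 0.40 and 0.65, and those of the FaDu libraries at 0.04, 0.02 and -0.05.

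Within shNSUN2 the height of replicate 3 varied with base composition. Its log2 difference from the mean of replicates 1 and 2 had a median of 0.36 over the 47 genes and a Spearman rho of 0.71 with the GC content of the gene's transcript, a description across genes of the same libraries. Of the 23 genes with GC content over the median, 22 were highest in replicate 3. The 47 genes had a median GC content of 47.9%, beside 48.6% over all tested genes. With GC content and length corrected in each library, 31 genes were called higher with a median log2 fold change of 0.57. Over all tested genes the number called higher was then 2814, against 1629 without the correction. Without replicate 3 of shNSUN2, 26 of the 47 were called higher and their median was 0.44.

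**Figure D3:**
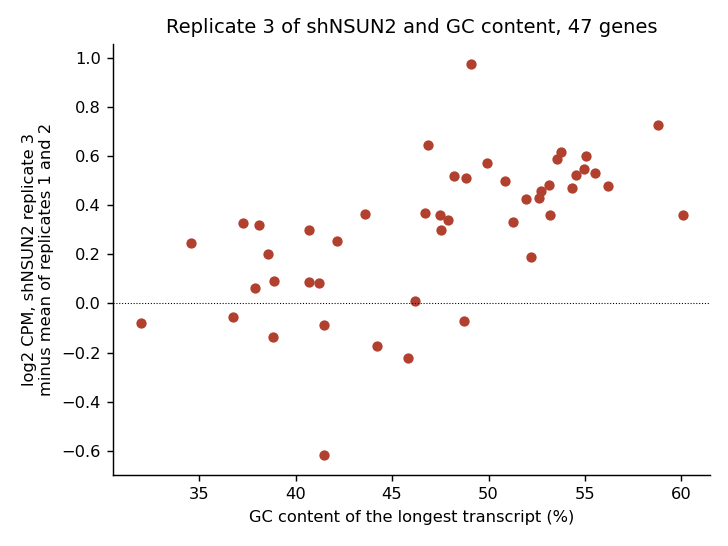
Each point is 1 of the 47 proteasome genes: GC content of its transcript (percent, horizontal axis) and log2 CPM in shNSUN2 replicate 3 minus the mean of shNSUN2 replicates 1 and 2 (vertical axis). Genes of higher GC content lie higher, with a Spearman rho of 0.71.

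Among the 7 alpha subunits of the 20S core, 4 were called higher in shNSUN2 cells (PSMA3, PSMA4, PSMA5 and PSMA7) and none lower. Over all tested genes, 8.54% were called higher and 9.97% lower. The class had a median log2 fold change of 0.44. PSMA7 (chr20:62136735-62143440, GRCh38, minus strand) had the highest level per length of all 47 genes. It stood at 423, 377 and 577 CPM in shNSUN2 libraries, against 286, 278 and 281 CPM in FaDu libraries (log2 fold change 0.70, SE 0.16, adjusted p = 0.0224). The lowest shNSUN2 library was still above the highest FaDu library. PSMA4 (chr15:78540405-78552419, plus strand), whose product lies at the gate of the core, stood at 216, 199 and 247 CPM in shNSUN2 libraries, against 144, 137 and 132 CPM in FaDu libraries (0.68, SE 0.12, adjusted p = 0.00862). PSMA5 stood at 253, 231 and 303 CPM in shNSUN2, against 171, 171 and 162 CPM in FaDu (0.64, SE 0.13, adjusted p = 0.0136). PSMA3, with the smallest change of the 4, stood at 112, 93.2 and 98.2 CPM in shNSUN2, against 76.1, 70.9 and 76.2 CPM in FaDu (0.44, SE 0.12, adjusted p = 0.0382).

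PSMA2 did not pass the test although its groups were apart, at 136, 153 and 153 CPM in shNSUN2, against 106, 127 and 102 CPM in FaDu (0.40, adjusted p = 0.066). PSMA1 and PSMA6 differed by less than the spread between libraries. PSMA1 had 69.5, 75.8 and 73.2 CPM in shNSUN2 and 72.1, 68.9 and 70.2 CPM in FaDu libraries, and PSMA6 averaged 196 ± 27.8 CPM in shNSUN2 and 186 ± 21.6 CPM in FaDu libraries (SD, n = 3 each). The alpha subunits enter each ring in equal number, yet their estimates here ran between 0.05 and 0.70. The count of 4 was 2 without replicate 1 of shNSUN2, and 1, 1 and 0 without replicates 1, 2 and 3 of FaDu.

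Among the 7 constitutive beta subunits, 4 were called higher (PSMB2, PSMB3, PSMB4 and PSMB5) and none lower, beside 8.54% and 9.97% of all tested genes. The median log2 fold change was 0.62. PSMB5 (chr14:23016543-23035230, minus strand) carries the chymotrypsin-like site that bortezomib blocks. It stood at 208, 176 and 257 CPM in shNSUN2 libraries, against 114, 87.1 and 89.8 CPM in FaDu libraries (1.14, SE 0.17, adjusted p = 0.00515). PSMB2 (chr1:35599544-35641844, minus strand), a structural subunit with no active site, stood at 232, 229 and 297 CPM in shNSUN2, against 135, 122 and 118 CPM in FaDu (1.02, SE 0.14, adjusted p = 0.00316). For both genes every shNSUN2 library was far above the FaDu libraries. The structural subunits PSMB3 and PSMB4 rose by 0.72 (SE 0.18, adjusted p = 0.0275) and 0.62 (SE 0.16, adjusted p = 0.0316). In both of these, replicate 3 of shNSUN2 stood well above the other two, at 304 CPM for PSMB3 and 343 CPM for PSMB4, where replicate 1 had 209 and 239 CPM.

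The other catalytic subunits did not pass the test. PSMB6, with the caspase-like site, was at 106, 108 and 154 CPM in shNSUN2, against 96.9, 93.3 and 90.4 CPM in FaDu (0.39, SE 0.16, adjusted p = 0.133). PSMB7, with the trypsin-like site, was at 215, 189 and 300.2 CPM in shNSUN2, against 222, 208 and 197 CPM in FaDu (0.17, SE 0.17, adjusted p = 0.55). The PSMB7 groups overlapped, and without replicate 3 of shNSUN2 its estimate was -0.05. PSMB1, a structural subunit, was at 193, 198 and 241 CPM in shNSUN2, against 179, 178 and 181 CPM in FaDu (0.23, adjusted p = 0.223). Without any 1 of the FaDu libraries 2 of the 7 beta genes were called.

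The 3 immunoproteasome subunits were all called higher, beside 8.54% of all tested genes, with a median log2 fold change of 1.12. PSMB8 (chr6:32840717-32844703, minus strand), which replaces PSMB5, stood at 120.3, 119.9 and 184 CPM in shNSUN2 libraries, against 69.8, 69.9 and 56.1 CPM in FaDu libraries (1.12, SE 0.20, adjusted p = 0.00886). PSMB9 (chr6:32844136-32859585, plus strand), which replaces PSMB6, stood at 46.7, 47.6 and 73.7 CPM in shNSUN2, against 28.2, 26.6 and 29.4 CPM in FaDu (0.99, SE 0.19, adjusted p = 0.0126). PSMB10 (chr16:67934502-67937087, minus strand), which replaces PSMB7, stood at 34.8, 32.2 and 42.9 CPM in shNSUN2, against 17.2, 15.8 and 13.4 CPM in FaDu (1.25, SE 0.16, adjusted p = 0.00294). In each of them replicates 1 and 2 of shNSUN2 lay close together, replicate 3 lay higher, and no library of one group reached the other. PSMB9 lost its call without replicate 2 of FaDu (adjusted p = 0.0598) and without replicate 3 of FaDu (adjusted p = 0.0522). PSMB8 and PSMB9 lie side by side in the MHC region with exons that overlap each other and PSMB8-AS1, and the strand of the reads is not stated, so some of their reads cannot be assigned. PSMB8-AS1 averaged 7.37 ± 2.60 CPM in shNSUN2 and 3.73 ± 0.89 CPM in FaDu (SD, n = 3 each).

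The balance of inducible and constitutive subunits was not the same for the 3 catalytic positions. The PSMB8 to PSMB5 ratio of CPM was 0.577, 0.683 and 0.719 in shNSUN2 libraries, against 0.613, 0.803 and 0.625 in FaDu libraries, and the groups overlapped. The PSMB9 to PSMB6 ratio was 0.440, 0.439 and 0.478 in shNSUN2, against 0.291, 0.285 and 0.326 in FaDu. The PSMB10 to PSMB7 ratio was 0.162, 0.170 and 0.143 in shNSUN2, against 0.0774, 0.0759 and 0.0677 in FaDu. The last ratio averaged 0.158 ± 0.0138 in shNSUN2 and 0.0737 ± 0.0052 in FaDu (SD, n = 3 each). Groups did not overlap for the PSMB9 and PSMB10 ratios. With 3 libraries against 3 an exact two-sided permutation test cannot go below p = 0.1, so no call was made on the ratios. On the scale of CPM per kilobase of mRNA, PSMB8 averaged 126 in shNSUN2 and 58.1 in FaDu, PSMB9 averaged 71.6 in shNSUN2 and 35.9 in FaDu, and PSMB10 averaged 30.1 in shNSUN2 and 12.7 in FaDu. Their constitutive partners averaged 165 in shNSUN2 and 74.9 in FaDu for PSMB5, 144 in shNSUN2 and 109.8 in FaDu for PSMB6, and 240 in shNSUN2 and 213 in FaDu for PSMB7.

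**Figure D4:**
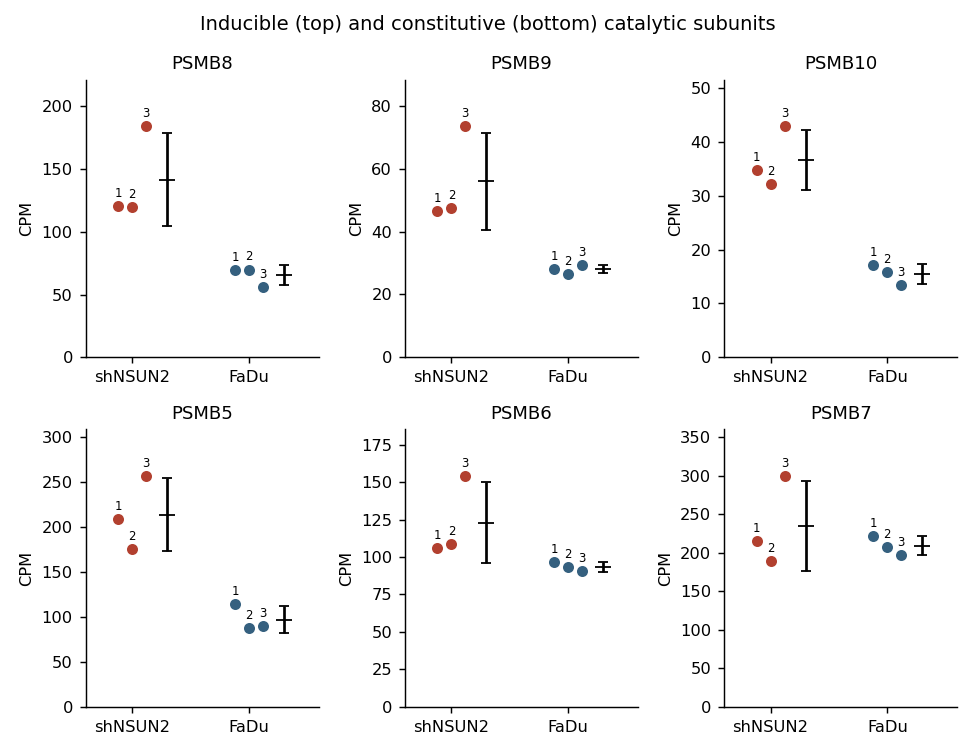
CPM of the inducible catalytic subunits (top) and of the constitutive subunit each replaces (bottom) in the 3 shNSUN2 and 3 FaDu libraries; numbers are replicates, and the bar beside each group is the mean with 1 SD. The groups are apart for all genes but PSMB7, and replicate 3 is the highest shNSUN2 library in every panel.

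The 6 ATPase subunits of the 19S particle form the ring that unfolds substrates. Of these, 4 were called higher (PSMC1, PSMC2, PSMC3 and PSMC6) and none lower, beside 8.54% and 9.97% of all tested genes. The median log2 fold change was 0.52. PSMC3 (chr11:47418769-47426473, minus strand) had the largest change, at 298, 289 and 409 CPM in shNSUN2 libraries, against 197, 187 and 167 CPM in FaDu libraries (0.85, SE 0.16, adjusted p = 0.0108). PSMC1 (chr14:90256495-90275429, plus strand) had the highest CPM of the 47 genes, at 789, 708 and 712 CPM in shNSUN2, against 509, 516 and 494 CPM in FaDu (0.54, SE 0.10, adjusted p = 0.0105). Of its 6161 exonic bases, PSMC1 has 4671 in common with NRDE2 on the opposite strand. As the strand of the reads is not stated, some of the reads counted for PSMC1 cannot be assigned. PSMC1 also has 13 pseudogenes in the table, which came to 4.42% of its CPM in shNSUN2 and 4.10% in FaDu. NRDE2 was at 133, 135 and 138 CPM in shNSUN2, against 120.0, 130.1 and 121 CPM in FaDu, and was not called.

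Among the called ATPase genes, replicate 3 of shNSUN2 stood far above the other shNSUN2 libraries for PSMC3 but not for PSMC1, PSMC2 or PSMC6. PSMC2 was at 136, 122 and 137 CPM in shNSUN2, against 88.3, 99.5 and 91.5 CPM in FaDu (0.50, adjusted p = 0.0207). PSMC6 was at 149, 139 and 131 CPM in shNSUN2, against 90.6, 110.3 and 103 CPM in FaDu (0.46, adjusted p = 0.0351). PSMC4 did not pass the test, with groups apart at 88.0, 80.0 and 123 CPM in shNSUN2, against 69.2, 66.5 and 61.6 CPM in FaDu (0.56). PSMC5 overlapped between groups, at 134 ± 18.5 CPM in shNSUN2 and 120.2 ± 19.3 CPM in FaDu (SD, n = 3 each). The count of 4 was 2 without replicate 1 of shNSUN2, and 1, 1 and 0 without replicates 1, 2 and 3 of FaDu.

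Of the 11 non-ATPase subunits of the 19S particle, 6 were called higher (PSMD1, PSMD2, PSMD3, PSMD4, PSMD12 and PSMD13) and none lower. Over all tested genes the shares were 8.54% and 9.97%. The median log2 fold change of the class was 0.50. PSMD1 and PSMD2, the large scaffold subunits, were at 154, 120.2 and 121 CPM and at 383, 316 and 481 CPM in shNSUN2 libraries, against 88.8, 92.8 and 77.8 CPM and 295, 258 and 224 CPM in FaDu libraries. Their log2 fold changes were 0.61 (adjusted p = 0.0238) and 0.60. PSMD4, a receptor for ubiquitin chains, was at 206, 195 and 280.3 CPM in shNSUN2, against 150.3, 148 and 139 CPM in FaDu (0.64, SE 0.15, adjusted p = 0.0261). All 3 genes had their FaDu libraries below every shNSUN2 library. Of the lid subunits, PSMD13 was at 93.3, 79.2 and 122 CPM in shNSUN2, against 61.1, 56.5 and 61.3 CPM in FaDu (0.72, adjusted p = 0.024). PSMD3 was at 208, 187 and 270.2 CPM in shNSUN2, against 151, 136 and 139 CPM in FaDu (0.64, adjusted p = 0.0253). PSMD12 was at 129, 113 and 126 CPM in shNSUN2, against 87.0, 90.5 and 82.5 CPM in FaDu (0.50, adjusted p = 0.0213). Replicate 3 of shNSUN2 was the highest library for PSMD3 and PSMD13, whereas PSMD12 was even across its group.

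The deubiquitylating enzyme of the lid, PSMD14, and its partner PSMD7 did not pass the test. PSMD14 was at 107, 90.1 and 93.1 CPM in shNSUN2, against 76.5, 88.0 and 85.8 CPM in FaDu (0.22, adjusted p = 0.269). PSMD7 was at 214, 208 and 181 CPM in shNSUN2, against 169, 171 and 167 CPM in FaDu (0.25, adjusted p = 0.151). The lid subunits PSMD6 and PSMD8 also had groups apart without a call. PSMD6 averaged 65.0 ± 6.42 CPM in shNSUN2 and 54.5 ± 1.69 CPM in FaDu, and PSMD8 averaged 165 ± 42.1 CPM in shNSUN2 and 128 ± 4.21 CPM in FaDu (SD, n = 3 each). PSMD11 was the 1 gene of the class whose groups overlapped, at 193, 138 and 206 CPM in shNSUN2, against 144, 143 and 111 CPM in FaDu (0.43, adjusted p = 0.133). None of the 11 was called without replicate 1 of shNSUN2 or without any 1 of the FaDu libraries.

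Among the activators 2 of 4 were called higher, beside 8.54% of all tested genes, with estimates between 0.21 and 2.01. PSME3 (chr17:42824385-42843758, plus strand), which encodes the nuclear PA28 gamma, had the largest change of the 47 genes and the least even one. It was at 278, 96.7 and 323 CPM in shNSUN2 libraries, against 61.3, 63.4 and 48.3 CPM in FaDu libraries (2.01, SE 0.43, adjusted p = 0.022). Replicate 2 of shNSUN2 was above the FaDu libraries but far below the other shNSUN2 libraries. PSME3 was called in 4 of the 12 alternatives, with an adjusted p of 0.0592 without replicate 1 and 0.0868 without replicate 3 of shNSUN2, and of 0.0018 without replicate 2. Without replicates 1, 2 and 3 of FaDu its adjusted p was 0.073, 0.0712 and 0.0831. PSME3 has 300 exonic bases in common with BECN1 on the opposite strand. BECN1 moved the other way, at 55.2, 48.5 and 54.7 CPM in shNSUN2, against 87.7, 86.7 and 80.5 CPM in FaDu (-0.69, SE 0.12, adjusted p = 0.00762).

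PSME1 and PSME2 encode PA28 alpha and beta, which join in 1 ring and are both interferon-inducible. PSME2 (chr14:24143362-24147570, minus strand) was at 256, 283 and 339 CPM in shNSUN2, against 154, 136 and 155 CPM in FaDu (0.98, SE 0.14, adjusted p = 0.00352). PSME1 was at 195, 197 and 252 CPM in shNSUN2, against 184, 199 and 169 CPM in FaDu (0.22, SE 0.14, adjusted p = 0.301). Their ratio, PSME2 to PSME1, was therefore 1.31, 1.43 and 1.35 in shNSUN2 libraries, against 0.836, 0.682 and 0.918 in FaDu libraries, without overlap. The PSME2 pseudogenes in the table came to 2.02% of its CPM in shNSUN2 and 1.97% in FaDu. PSME4, which encodes PA200, was at 120.0, 121 and 78.6 CPM in shNSUN2, against 82.2, 100.4 and 92.9 CPM in FaDu (0.21, SE 0.18, adjusted p = 0.46), with replicate 3 of shNSUN2 below every FaDu library.

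**Figure D5:**
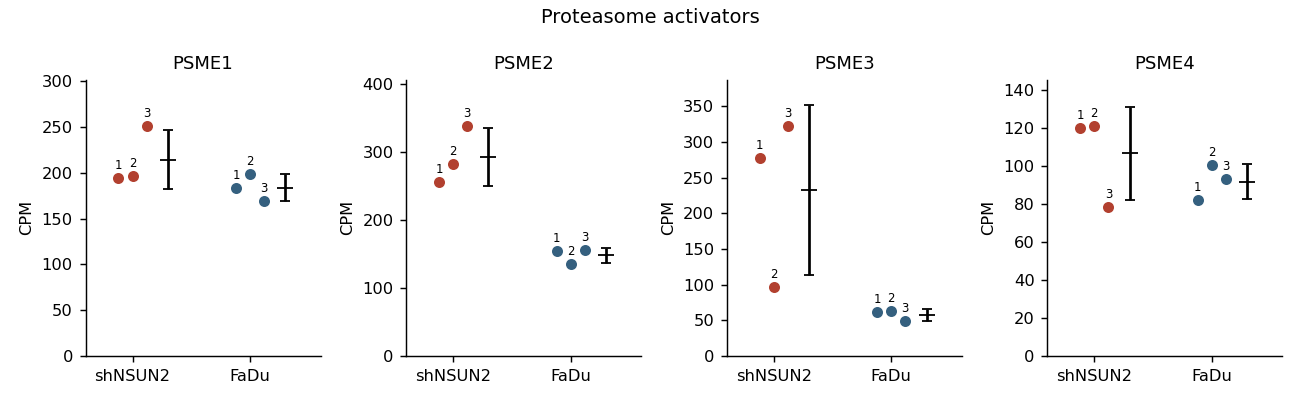
CPM of the 4 activator genes in the 3 shNSUN2 and 3 FaDu libraries; numbers are replicates, and the bar beside each group is the mean with 1 SD. PSME2 is apart in every library, PSME3 is at 96.7 CPM in shNSUN2 replicate 2 against 278 and 323 CPM in the other shNSUN2 libraries, and PSME1 and PSME4 overlap.

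The assembly factors and the inhibitor PSMF1 had 2 of 9 genes called higher (22.2%) and none lower. Over all tested genes 8.54% were called higher and 9.97% lower, and 13.4% of those averaging at least 10 CPM were called higher. With so few genes, nothing is read from that count. The median log2 fold change was 0.38, the lowest of the 7 classes. POMP, the maturation factor that stays in the nascent core until it is complete, was at 115, 107 and 131 CPM in shNSUN2 libraries, against 74.3, 83.6 and 73.0 CPM in FaDu libraries (0.61, SE 0.13, adjusted p = 0.016). PSMD5, a chaperone of the ATPase ring, was at 99.2, 90.5 and 100.4 CPM in shNSUN2, against 67.2, 70.6 and 67.7 CPM in FaDu (0.50, SE 0.11, adjusted p = 0.0195). Both genes were apart between groups and even within them. Without any 1 of the FaDu libraries neither was called, and 1 was called without replicate 1 of shNSUN2.

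The other 7 did not pass the test. PSMD10 (gankyrin), another chaperone of the ATPase ring, was the gene with a negative estimate, at 41.8, 44.8 and 40.7 CPM in shNSUN2, against 48.0, 51.0 and 51.0 CPM in FaDu (-0.24, SE 0.11, adjusted p = 0.182). PSMD9, the remaining chaperone of that ring, was at 53.4, 56.9 and 77.9 CPM in shNSUN2, against 50.6, 40.2 and 46.2 CPM in FaDu (0.46, adjusted p = 0.108). The chaperones of the alpha ring were among the least abundant of the 47 genes and had estimates of 0.38 for PSMG1, 0.14 for PSMG2, 0.58 for PSMG3 and 0.17 for PSMG4. PSMG3 was the most scattered of them, at 52.1 ± 16.5 CPM in shNSUN2 and 34.9 ± 7.37 CPM in FaDu (SD, n = 3 each). PSMF1, known as PI31, averaged 94.4 ± 14.3 CPM in shNSUN2 and 74.2 ± 4.40 CPM in FaDu (SD, n = 3 each; 0.35, adjusted p = 0.122).

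The ranking of the 47 genes by level per length was nearly the same in both groups, with a Spearman rho of 0.94 across genes. Among the 20S core genes, the inducible subunits apart, levels ran between 48.4 and 461 CPM per kilobase in shNSUN2 and between 31.2 and 283 CPM per kilobase in FaDu. PSMG1 had the lowest level of the 47 genes in both groups, at 14.3 CPM per kilobase in shNSUN2 and 10.99 in FaDu. Subunits that enter the core in equal number thus differed several-fold in transcript level within each group.

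Lists of related genes, also drawn up with earlier results known, are given for comparison. Over all tested genes, 8.54% were called higher and 9.97% lower. Among those averaging at least 10 CPM, 13.4% were called higher. With GC content and length corrected, the calls higher were 3 (1 without the correction) among proteasome-bound proteins, 2 (0) in the NFE2L1 pathway, 5 (2) among ubiquitin and shuttle factors, 9 (5) in interferon signalling and peptide loading and 3 (2) among peptidases. The calls lower were then 2 (1) in the NFE2L1 pathway and 3 (2) in interferon signalling and peptide loading. Over all tested genes 2814 (1629) were then called higher and 2207 (1903) lower. Of 11 proteasome-bound proteins outside the 47, 9 were tested, with a median log2 fold change of 0.12. TXNL1, a thioredoxin-like protein of the 19S particle, rose by 0.66 (adjusted p = 0.0197), and PAAF1, a chaperone of the ATPase ring, had a log2 fold change of -0.95 (adjusted p = 0.0154). Neither direction had a call without replicate 1 of shNSUN2 or any 1 of the FaDu libraries. The 19S subunits SEM1 and ADRM1, which the 47 do not include, had estimates of 0.00 and 0.49 and did not pass the test. The testis subunit PSMA8 was at 0 in all libraries.

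In the pathway of NFE2L1, none of 12 genes was called higher and 1 was called lower, beside 8.54% and 9.97% of all tested genes. The list had a median log2 fold change of -0.15. SYVN1, the ubiquitin ligase of the endoplasmic reticulum that targets NFE2L1, was at 17.0, 19.2 and 19.3 CPM in shNSUN2, against 37.2, 36.1 and 38.3 CPM in FaDu (-1.01, SE 0.12, adjusted p = 0.00211). NFE2L1 itself was at 208, 307 and 239 CPM in shNSUN2, against 477, 319.7 and 318 CPM in FaDu (-0.56, SE 0.21, adjusted p = 0.0952). NFE2L2, its relative, was at 31.3 CPM in replicate 3 of shNSUN2 and at 156 to 172 CPM in the other libraries. DDI2, the protease that activates NFE2L1, had an estimate of 0.27 (adjusted p = 0.33). Without replicates 2 and 3 of shNSUN2, 1 and 2 genes of the list were called higher. NFE2L1 is activated by cleavage of its protein, which transcript levels do not measure.

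Of 12 genes for ubiquitin, ubiquitin-activating enzymes and shuttle factors, 11 were tested. Of these, 2 rose and none fell, beside 8.54% called higher and 9.97% called lower of all tested genes. The list had a median log2 fold change of 0.34. UBA1, the main ubiquitin-activating enzyme, rose by 0.45 and the shuttle factor RAD23B by 0.37, each with an adjusted p of 0.0402. No gene of the list was called without any 1 of the FaDu libraries or without replicate 1 of shNSUN2, 1 was called without replicate 2 and 4 were called without replicate 3 of shNSUN2. Of 8 cytosolic peptidases that trim proteasome products, 2 rose and 1 fell, beside the same shares of all tested genes. LAP3, an interferon-inducible aminopeptidase, was at 108, 92.0 and 123 CPM in shNSUN2, against 56.1, 53.7 and 51.1 CPM in FaDu (1.01, SE 0.14, adjusted p = 0.00346). THOP1 rose by 0.86 (adjusted p = 0.029). Without replicate 1 of shNSUN2 or any 1 of the FaDu libraries, 1 peptidase was called higher. BLMH (bleomycin hydrolase) averaged 10.4 ± 0.304 CPM in shNSUN2 and 22.5 ± 1.58 CPM in FaDu (SD, n = 3 each; log2 fold change -1.12, SE 0.13, adjusted p = 0.00199).

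Of 20 genes of interferon signalling and peptide loading, 5 were called higher and 2 lower, beside 8.54% and 9.97% of all tested genes, and the median log2 fold change was 0.32. TAP2, a chain of the peptide transporter encoded near PSMB8 and PSMB9, rose by 0.75 (adjusted p = 0.00868), and the other chain, TAP1, had an estimate of 0.74 and an adjusted p of 0.0526. IRF1 and NLRC5, transcription factors of MHC class I genes, rose by 0.77 (adjusted p = 0.0153) and 0.72 (adjusted p = 0.0226). HLA-B and ERAP2 rose by 0.49 and 0.56, whereas STAT2 and JAK1, of the interferon receptor pathway, had log2 fold changes of -0.55 (adjusted p = 0.0188) and -0.45 (adjusted p = 0.036). The count of 5 was 3 without replicate 1 of shNSUN2, and 3, 2 and 0 without replicates 1, 2 and 3 of FaDu, and it was 8 without replicate 3 of shNSUN2. No gene of the list was called lower without replicate 1 of shNSUN2 or any 1 of the FaDu libraries.

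Because immunoproteasome subunits are abundant in leukocytes, markers of these cells were set beside them. Of 17 leukocyte markers, 5 were tested and none was called, and PTPRC, CD3D and MS4A1 were at 0 in every library. Summed leukocyte markers came to 39.8 to 47.7 CPM in shNSUN2 and 33.0 to 53.7 CPM in FaDu libraries, nearly all of it CD14 and CD68, and to 1.33 to 2.23 CPM in shNSUN2 and 1.57 to 2.02 CPM in FaDu libraries without those genes. Genes of plasma cells, which are also leukocytes, and of other cell types did move with the groups. The 6 plasma cell genes summed to 2.10 to 6.15 CPM in shNSUN2 and 0 to 0.267 CPM in FaDu. All 4 tested were called higher, beside 8.54% of all tested genes. IGKC and IGLC2 were at 0 in every FaDu library, and IGHG1 and IGHA1 at 0 to 0.053 CPM. These 4 genes passed the filter only through the shNSUN2 libraries, so a call could only be higher and nothing is read from the count. The 8 prostate epithelial genes summed to 38.5 to 58.5 CPM in shNSUN2 and 17.9 to 20.7 CPM in FaDu. Of these, 4 were called higher and 1 lower, beside 8.54% and 9.97% of all tested genes. KLK2, KLK3 and MSMB, among those called higher, were at 0 to 0.16 CPM in FaDu and also passed the filter only through shNSUN2. The 5 smooth muscle genes summed to 15.2, 3.13 and 2.74 CPM in shNSUN2 and 2.14, 2.39 and 1.67 CPM in FaDu libraries, with 2 called higher. Most of that rise was in replicate 1 of shNSUN2. The 2 smooth muscle genes called, DES and ACTG2, were at 0 to 0.11 CPM in FaDu and passed the filter only through shNSUN2. In bulk samples, a change in the share of a cell type and a change in RNA per cell cannot be told apart. The source of these transcripts in libraries of an established cell line was not tested, nor was their part in the proteasome values.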

How the data were processed

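RNA was sequenced from 3 shNSUN2 and 3 FaDu libraries. The authors deposited 1 table of estimated counts per gene, whole numbers that were used as they stand. Per the submitters' processing notes, the tools were Bowtie 0.12.2, HISAT2 2.0 and StringTie 1.3.0, with no role given, and the build was a mouse one, which cannot give human identifiers. The human build, the annotation and the strand setting are not stated. Values of 4 were 3.25 to 3.81 times as frequent as the mean of 3 and 5, so 1 fragment is often worth several units, and no counting interval is given. Symbols came from a gene name table and GENCODE 29, and 58817 of 58825 identifiers had one. Gene positions follow GENCODE 29 (GRCh38).

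The test was edgeR 4.0.16 (R 4.3.3; glmQLFit and glmQLFTest, TMM scaling, filterByExpr with minimum count 10 and minimum total 15, group as the only term), which kept 19081 genes, with Benjamini-Hochberg adjustment over all of them, two-sided. The SE is the size of the log2 fold change divided by the square root of F. Levels per length divide CPM by the length of the longest mRNA marked as principal, and their ranking depends on that choice. Log2 CPM used a prior count of 2. The procedure was tested on simulated data. Alternatives were DESeq2 size factors, DESeq2 1.42.0, no filter, a correction for GC content and length (splines with 5 degrees of freedom), a replicate block, the block with that correction, and each library left out.

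The members and lists were chosen with earlier results of these data known. Every one of the 47 genes is accounted for, and genes of the related lists are named where they were called or define the list. Values of some genes of the related lists are not reported here. The design text mentions 3 pairs of experiments but not what a pair has in common, and the fit reported has no replicate block.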

Additional observations from a re-analysis of the deposited data

How the results depend on the processing

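No proteasome gene was called lower under any of the 12 alternatives, and the median log2 fold change stayed between 0.44 and 0.57. The number called higher, 25, was 25 with DESeq2 size factors, 26 with DESeq2, 22 without a filter and 31 with GC content and length corrected. Over all genes the number called higher, 1629, was 1666, 2062, 1411 and 2814 in the same order. DESeq2 and the fit without a filter each covered 31221 genes, against 19081. The design text mentions 3 pairs without naming what they share, and the deviations of same-numbered libraries from their group means had correlations of -0.04, 0.02 and 0.01. With a replicate block 16 of the 47 genes were called higher. They included 2 of the 19S ATPases, 3 of the 19S non-ATPases, 1 of the activators and 1 of the assembly factors. Over all genes 969 were then called higher. The block with GC content and length corrected gave 26 of the 47, with 1 activator, and 1903 over all genes. Without a filter 1 activator was called, and with GC content and length corrected 4 assembly factors were. Leaving out 1 library gave 5 to 26 genes in all, 0 to 4 of the alpha, 2 to 4 of the beta, 0 to 5 of the 19S ATPase, 0 to 7 of the 19S non-ATPase, 1 to 2 of the activator and 0 to 2 of the assembly genes. The estimates of PSMA6 and PSMB7 then ran from -0.034 to 0.17 and from -0.046 to 0.30, negative without replicate 3 of shNSUN2, and the log2 difference in the PSMB8 to PSMB5 ratio from -0.11 to 0.085. The cause of these shifts was not tested.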
